A study of Homo sapiens with 12 samples.

Results

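The 10 genes described here are markers and receptors of the blood vessel wall together with 2 gap junction genes: PECAM1, CDH5, ENG, KDR, FLT1, VEGFA, TEK, TIE1, GJA1 and GJB2. They are 10 of the 29744 gene entries in the deposited count table, taken by symbol and followed across 4 groups of MB157 cells. PECAM1 and GJA1 were chosen because they were higher with SOX2, and TEK because it was higher with N1-ICD. In those comparisons the values of all 10 genes are therefore given as a description, with no p-value. Tests of ENG, VEGFA, KDR and FLT1 are given for resistant against sensitive cells, a comparison that the choice did not use. Its libraries also served in the comparisons used for the choice, so these tests are not independent of it.

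MB157 is an established cell line of triple-negative breast cancer (TNBC), and the study asked how such NOTCH-driven cells escape γ-secretase inhibitors (GSI). The cells carry a deletion within NOTCH1 that leaves a constitutively active receptor still sensitive to GSI. MB157R iN1-ICD cells are GSI-resistant MB157R cells with a doxycycline-inducible, activated NOTCH1. This construct is NOTCH1 without its extracellular domain, which the paper calls N1-ICD. MB157R iEV cells are the same resistant cells with the inducible empty vector. MB157 iSOX2 cells are sensitive cells with inducible SOX2, and MB157 iEV cells are sensitive cells with the empty vector. Each group had 3 libraries, and all 4 groups carried a lentiviral vector and received 1 µg/ml doxycycline for 72 h by the labels. MB157R is a single derivative that grew out over 25 weeks in 1 µM of the GSI LY3039478, and whether it was kept in GSI until harvest is not stated. MB157R iEV was set against MB157 iEV for resistance, MB157 iSOX2 against the same MB157 iEV libraries for SOX2, and MB157R iN1-ICD against the same MB157R iEV libraries for N1-ICD, so the 3 comparisons share libraries.

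In vessels, VEGFA binds the receptor tyrosine kinases KDR (VEGFR2), which carries most of the signal, and FLT1 (VEGFR1), which binds the ligand tightly and can act as a decoy. Angiopoietins act on TEK (TIE2), which pairs with the related receptor TIE1, and endoglin (ENG) is a co-receptor for ligands of the TGFβ and BMP family. PECAM1 (CD31) and VE-cadherin (CDH5) hold endothelial cells together at their junctions. Connexins such as connexin 43 (GJA1) and connexin 26 (GJB2) form gap junction channels between neighbouring cells and are found in epithelia as well as in vessels.

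Promoter windows are shown for TEK, FLT1, KDR, GJA1 and GJB2, since TEK, FLT1 and KDR were higher together with N1-ICD while GJA1 and GJB2 were higher together in MB157R cells. Each window runs from 250 bases before to 50 after the RefSeq start site on GRCh38.p14, 5′ to 3′ on the gene's own strand. RefSeq windows were at hand for 7 of the 10 genes, and those of PECAM1, CDH5 and VEGFA are not shown, although PECAM1 had the largest difference of the 10. The windows were searched on both strands for the letters CATTGTT (bound by SOX factors), GTGGGAA (bound by RBPJ, the DNA-binding partner of N1-ICD) and ACGTG (bound by hypoxia-inducible factors), and none of these motifs contains another. Capitals mark the only match found.
TEK, chr9:27108975-27109274, plus strand: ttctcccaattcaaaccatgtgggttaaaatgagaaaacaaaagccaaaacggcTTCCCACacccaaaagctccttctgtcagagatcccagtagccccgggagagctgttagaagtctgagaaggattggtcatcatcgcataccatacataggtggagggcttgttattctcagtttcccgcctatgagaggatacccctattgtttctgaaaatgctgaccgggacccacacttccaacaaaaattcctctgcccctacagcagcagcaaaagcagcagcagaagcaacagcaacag
FLT1, chr13:28495079-28495378, minus strand: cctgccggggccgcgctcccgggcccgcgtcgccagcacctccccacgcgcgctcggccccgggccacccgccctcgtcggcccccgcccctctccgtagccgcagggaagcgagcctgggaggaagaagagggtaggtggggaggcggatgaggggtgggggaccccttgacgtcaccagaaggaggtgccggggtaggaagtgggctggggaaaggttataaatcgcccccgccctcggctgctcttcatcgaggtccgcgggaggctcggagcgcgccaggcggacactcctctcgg
KDR, chr4:55125546-55125845, minus strand: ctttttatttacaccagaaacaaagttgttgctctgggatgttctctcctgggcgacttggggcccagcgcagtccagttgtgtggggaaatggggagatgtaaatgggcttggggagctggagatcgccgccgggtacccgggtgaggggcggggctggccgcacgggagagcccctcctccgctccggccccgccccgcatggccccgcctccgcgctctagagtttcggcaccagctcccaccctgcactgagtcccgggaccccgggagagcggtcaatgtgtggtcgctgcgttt
GJA1, chr6:121435396-121435695, plus strand: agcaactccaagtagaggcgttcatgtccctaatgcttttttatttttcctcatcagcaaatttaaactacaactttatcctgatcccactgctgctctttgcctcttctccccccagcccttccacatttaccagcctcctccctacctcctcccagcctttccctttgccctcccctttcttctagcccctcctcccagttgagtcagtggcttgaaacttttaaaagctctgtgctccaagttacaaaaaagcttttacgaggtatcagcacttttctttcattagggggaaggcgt
GJB2, chr13:20192889-20193188, minus strand: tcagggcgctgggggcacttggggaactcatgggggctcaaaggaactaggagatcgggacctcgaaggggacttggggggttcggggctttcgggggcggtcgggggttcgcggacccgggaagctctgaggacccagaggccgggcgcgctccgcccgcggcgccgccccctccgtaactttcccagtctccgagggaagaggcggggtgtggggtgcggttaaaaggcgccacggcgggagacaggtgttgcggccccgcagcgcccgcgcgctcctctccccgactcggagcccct
The TEK window holds the RBPJ motif on the opposite strand, 196 bases before the start site, as do 6.25% of all 35116 RefSeq windows of this length for this motif. No match to any of the 3 motifs was found in the other 7 windows, of TIE1, KDR, FLT1, ENG, GJA1, GJB2 and a second TEK start. The SOX motif is in 3.33% and the hypoxia motif in 21.4% of all windows. A match is a run of letters and was not tested as a binding site.

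Each library held between 32773820 and 49055208 estimated counts. Levels are CPM, a count divided by the size of its library, scaled by TMM factors, which lay between 0.943 and 1.05 over the 12 libraries. A sum of 3 counts over a group, used as the floor for a gene with 0 counts, correspond to between 0.0226 and 0.0255 CPM and cover counting error only. SOX2 stood at 284, 328 and 292 CPM in MB157 iSOX2, against 6.46, 7.58 and 6.87 CPM in MB157 iEV. NOTCH1, whose counts can include the induced N1-ICD, stood at 2662, 1765 and 2611 CPM in MB157R iN1-ICD, against 105, 87.6 and 93.7 CPM in MB157R iEV. SOX2 averaged 62.2 ± 6.02 CPM in MB157R iEV and 6.97 ± 0.566 CPM in MB157 iEV (SD, n = 3 each). The study describes its replicates as biological, but how the libraries of a group were separated in culture is not given, so the p-values speak only of the spread among these libraries. In bulk RNA, a larger share of cells with a transcript and more transcript per cell cannot be told apart.

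The groups differed widely, and counts among the 10 genes are read against that. In MB157R iEV against MB157 iEV, edgeR's quasi-likelihood test with Benjamini-Hochberg adjustment called 90.2% of 11435 genes at an adjusted p under 0.05, and the libraries of the groups did not overlap for 90.4%. Only 4 of the 10 genes were among the genes that passed the filter of the study for this comparison, and all 4 were called with no overlap. GJA1, GJB2 and VEGFA were higher and ENG was lower, where 45.0% of genes tested were called higher and 45.3% lower. Among 16722 genes with a mean count of at least 5, 86.7% were called (42.9% higher and 43.8% lower), and of the 10 genes 8 were tested, with 5 higher, 1 lower and 2 that did not pass. In MB157 iSOX2 against MB157 iEV, 66.4% of 10904 genes were called (32.5% higher and 33.9% lower), and 69.8% had no overlap between libraries. There 4 of the 10 genes passed the filter, with PECAM1 and GJA1 higher and ENG and VEGFA lower. With a mean count of at least 5, 56.3% of all genes were called, 28.4% higher and 27.9% lower. In MB157R iN1-ICD against MB157R iEV, 59.1% of 11210 genes were called (29.8% higher and 29.3% lower), and 65.5% had no overlap. There 7 of the 10 genes passed the filter, with TEK, FLT1 and KDR higher and ENG, GJA1, GJB2 and VEGFA lower. With a mean count of at least 5, 52.9% of all genes were called, 27.6% higher and 25.3% lower. The choice of genes used the last 2 comparisons, so nothing is read from those counts. In the first, GJA1 and GJB2, and at a mean count of at least 5 also PECAM1 and CDH5, passed the filter only through MB157R iEV, where they were high, so those counts are no support either. The same shares over all genes stand behind the counts of every gene list described here. The median log2 fold change over all genes tested was -0.004, -0.002 and -0.001 in the 3 comparisons in this order.

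**Figure D1:**
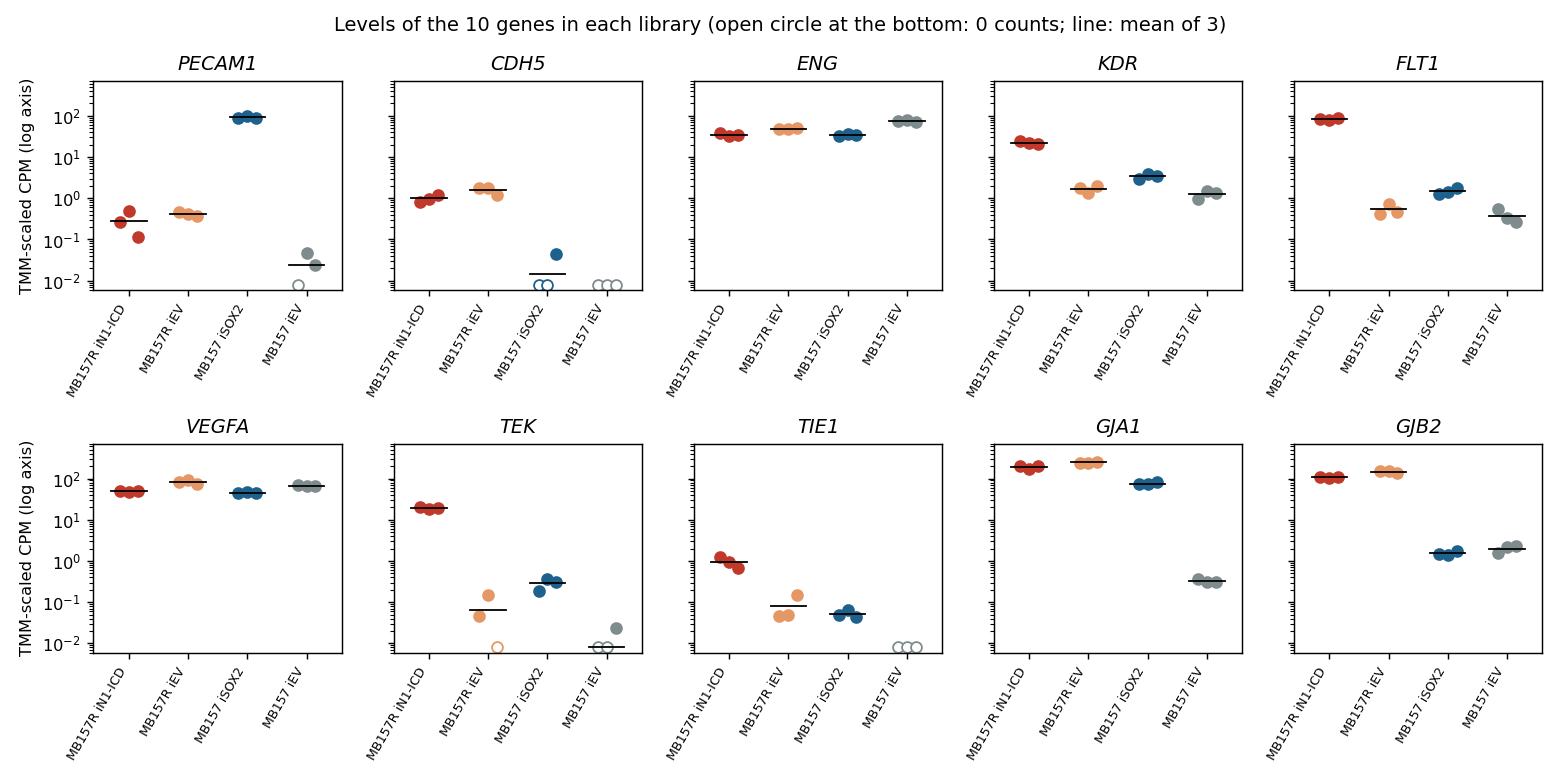
TMM-scaled CPM of the 10 genes on a log axis in each of the 12 libraries, with 1 panel a gene, the groups along the horizontal axis, a point for each library and a line at the group mean; open circles at the bottom are libraries with 0 counts. PECAM1 stands near 92.5 CPM in MB157 iSOX2 and under 0.5 CPM elsewhere, TEK, FLT1 and KDR are highest in MB157R iN1-ICD, and GJA1 has no overlap between any of the 4 groups.

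The 2 junction genes of endothelium differed most in MB157 iSOX2, where PECAM1 was high and CDH5 was near 0, while both were low in the MB157R groups and lowest in MB157 iEV. PECAM1 lies on chromosome 17 (64319415 to 64390860, GRCh38). It stood at 90.3, 97.8 and 89.3 CPM in MB157 iSOX2, against 0, 0.0468 and 0.0241 CPM in MB157 iEV, which is 3 counts in all 3 libraries together. It stood at 0.267, 0.479 and 0.118 CPM in MB157R iN1-ICD, against 0.472, 0.427 and 0.368 CPM in MB157R iEV. Every MB157 iSOX2 library thus lay far above all others, MB157R libraries came next with overlap between the vectors, and MB157 iEV was lowest. The ratio of MB157 iSOX2 to MB157 iEV was 3626, with an exact 95% interval of 1240.3 to 17583 that covers counting error only. The fitted log2 fold change was 11.67 (standard error 0.14). PECAM1 was among the genes filtered out for MB157R iEV against MB157 iEV. The ratio there was 16.5, with an exact 95% interval of 5.35 to 82.4, and no p-value is given because it could pass a filter only through MB157R iEV. SOX2 itself was higher in both MB157 iSOX2 and MB157R iEV than in MB157 iEV. PECAM1 averaged 92.5 ± 4.66 CPM in MB157 iSOX2 and 0.422 ± 0.0525 CPM in MB157R iEV. The part of SOX2 in these levels was not tested, and the 2 groups also differ in cell state.

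CDH5 (chromosome 16, 66366691 to 66404784) stood at 0.824, 0.958 and 1.21 CPM in MB157R iN1-ICD, against 1.77, 1.76 and 1.23 CPM in MB157R iEV. It had 2 counts in MB157 iSOX2, all in a single library, and 0 counts in MB157 iEV. The MB157R libraries therefore lay above every MB157 library, with the iN1-ICD libraries just below those of iEV. CDH5 was at least 61.6-fold higher in MB157R iEV than in MB157 iEV, against a floor of 3 counts over the MB157 iEV group. Its mean of 1.59 ± 0.307 CPM in MB157R iEV rested on 202 counts in the 3 libraries.

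The VEGFA receptors FLT1 and KDR were high in MB157R iN1-ICD and low elsewhere, while VEGFA itself was present in every group. FLT1 (chromosome 13, 28300346 to 28495128) stood at 85.8, 79.7 and 91.2 CPM in MB157R iN1-ICD, against 0.425, 0.728 and 0.454 CPM in MB157R iEV. It stood at 1.27, 1.4 and 1.77 CPM in MB157 iSOX2, against 0.541, 0.327 and 0.265 CPM in MB157 iEV. MB157R iN1-ICD was thus far above the other 3 groups, MB157 iSOX2 came next, and the 2 empty-vector groups overlapped. For FLT1 the ratio of means was 160 with N1-ICD and 3.92 with SOX2. FLT1 belongs to the NOTCH signature of the study, which was picked in part from the iN1-ICD libraries, so its higher level there is not independent evidence of its direction.

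KDR (chromosome 4, 55078481 to 55125595) stood at 24.1, 21.9 and 20.6 CPM in MB157R iN1-ICD, against 1.75, 1.33 and 1.97 CPM in MB157R iEV. It stood at 2.99, 3.88 and 3.57 CPM in MB157 iSOX2, against 0.961, 1.54 and 1.37 CPM in MB157 iEV. The order of the groups was the same as for FLT1, again with overlap between the empty-vector groups. Means differed by a ratio of 13.2 with N1-ICD and 2.69 with SOX2. In MB157R iEV against MB157 iEV neither receptor passed the test among genes with a mean count of at least 5. The log2 fold change there was 0.37 for KDR (standard error 0.24, adjusted p = 0.168) and 0.52 for FLT1 (standard error 0.39, adjusted p = 0.229).

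VEGFA (chromosome 6, 43770211 to 43786487) stood at 49, 47.3 and 50.3 CPM in MB157R iN1-ICD, against 83.4, 89.8 and 72.3 CPM in MB157R iEV. It stood at 45.7, 45.9 and 44.5 CPM in MB157 iSOX2, against 71.3, 65.2 and 65.4 CPM in MB157 iEV. The libraries of the 4 groups did not overlap, and both induced groups lay below both empty-vector groups. VEGFA was 1.22-fold higher in MB157R iEV than in MB157 iEV, and the log2 fold change was 0.21 with a standard error of 0.07 (edgeR quasi-likelihood, adjusted p = 0.0133). Without MB157 iEV replicate 2 the log2 fold change was 0.20 and the adjusted p 0.050, and the gene was no longer called. Its ratio of means was 0.674 with SOX2 and 0.597 with N1-ICD.

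**Figure D2:**
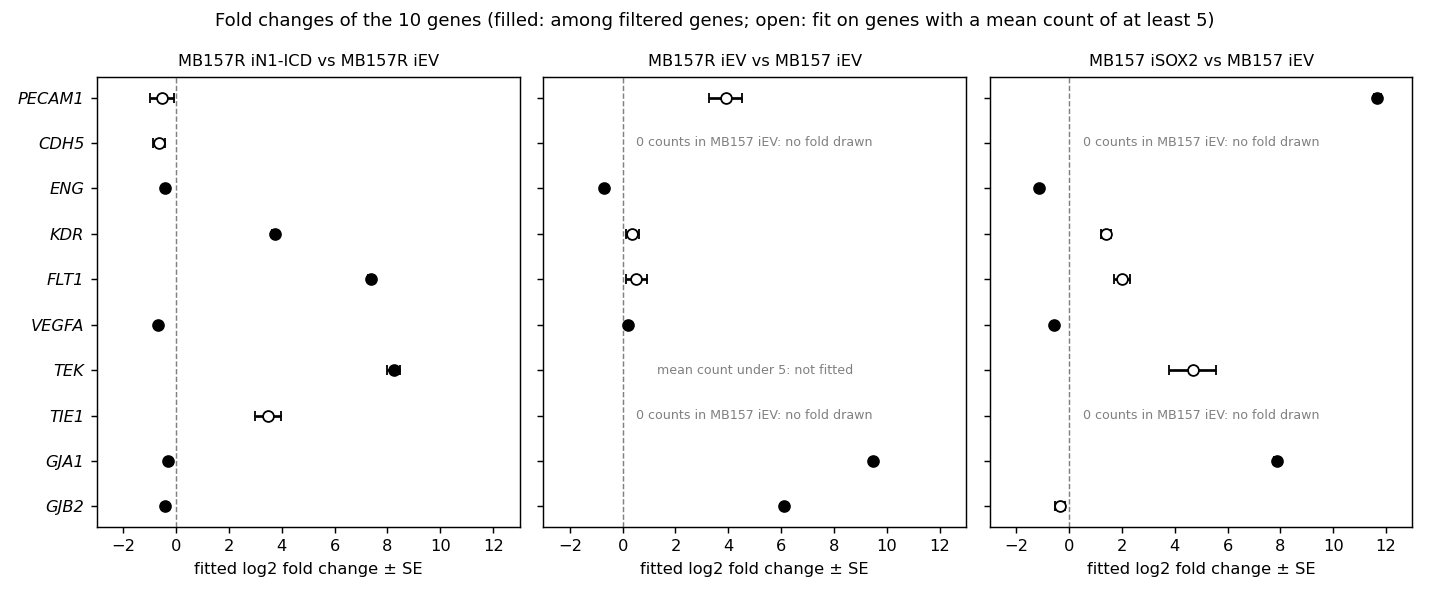
Fitted log2 fold change with its standard error for the 10 genes in the 3 comparisons, filled for genes that passed the filter of the study and open for those fitted only among genes with a mean count of at least 5. TEK at 8.23, FLT1 at 7.37 and KDR at 3.75 stand out with N1-ICD, GJA1 at 9.49 and GJB2 at 6.12 in MB157R iEV, and PECAM1 at 11.67 and GJA1 at 7.86 with SOX2.

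Other ligands and receptors of the VEGF, PDGF and FGF families made up a list of 12 genes. Between MB157R iEV and MB157 iEV, 9 of the 11 genes tested were higher and 2 lower, with a median log2 fold change of 1.17, against -0.004 over all genes. NRP2, a co-receptor that binds VEGF and semaphorins, averaged 209 ± 12.7 CPM in MB157R iEV and 0.703 ± 0.0685 CPM in MB157 iEV, a 297-fold difference. VEGFC, the ligand of the lymphatic receptor FLT4, averaged 55.5 ± 1.13 and 1.24 ± 0.313 CPM in these groups, 44.7-fold higher in MB157R iEV. FLT4 had 0 counts in MB157R iEV, against 32.9 to 33.8 CPM in MB157 iEV, and was at least 1427-fold lower. Ligand and receptor of this pair thus stood at opposite ends in the 2 cell states. PDGFA was 6.17-fold higher in MB157R iEV.

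With SOX2, 5 of the 9 genes of this list that were tested rose, 3 fell and 1 did not pass, with a median of 0.32. FGF2, a growth factor for endothelial and epithelial cells, averaged 54.2 ± 2.43 CPM in MB157 iSOX2 and 23.8 ± 0.359 CPM in MB157 iEV (log2 fold change 1.20, edgeR quasi-likelihood, adjusted p = 1.6e-12). FLT4 averaged 21.9 ± 0.503 CPM in MB157 iSOX2 and 33.3 ± 0.438 CPM in MB157 iEV (log2 fold change -0.60, adjusted p = 9.1e-09). The same edgeR test gave the p-values that follow. With N1-ICD, 1 of the 10 genes tested rose, 6 fell and 3 did not pass, with a median of -0.69. FGF2 rose 1.44-fold, while PDGFA averaged 40.8 ± 5.55 CPM in MB157R iN1-ICD and 130 ± 9.57 CPM in MB157R iEV (log2 fold change -1.64, adjusted p = 1.3e-07). NRP2 fell to 107 ± 8.47 CPM in MB157R iN1-ICD, against 209 ± 12.7 CPM in MB157R iEV. FLT1 and KDR, which bind VEGFA, were thus higher in a group in which VEGFA was lower and 6 of these 10 genes fell.

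VEGFA is a textbook target of hypoxia-inducible factors, and 26 other genes of that response were followed beside it. Between MB157R iEV and MB157 iEV, 13 of 24 tested genes were higher, 9 lower and 2 did not pass, with a median log2 fold change of 0.24. HIF1A, a subunit of the factor itself, was 3.59-fold higher, and ADM, a vasoactive peptide, 33.7-fold higher, while the mitophagy gene BNIP3 averaged 13.3 CPM in MB157R iEV and 47.9 CPM in MB157 iEV. With SOX2, 5 of 23 rose, 15 fell and 3 did not pass, with a median of -0.19, and the stress gene DDIT4 fell to 74.8 CPM in MB157 iSOX2, against 292 CPM in MB157 iEV. With N1-ICD, 7 of 24 rose, 11 fell and 6 did not pass, with a median of -0.11. The glycolytic enzyme LDHA fell by 0.50 and PGK1 by 0.41 on the log2 scale, while NDRG1 rose 1.95-fold (adjusted p = 1.1e-06). Genes of the list went both ways in each of the 3 comparisons.

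TEK was nearly confined to MB157R iN1-ICD libraries, and TIE1 followed it at a much lower level. TEK (chromosome 9, 27109225 to 27230174), whose promoter window carries the capitals above, stood at 20.1, 18 and 19.1 CPM in MB157R iN1-ICD, against 0.0472, 0.151 and 0 CPM in MB157R iEV. It stood at 0.191, 0.373 and 0.31 CPM in MB157 iSOX2, against 0, 0 and 0.0241 CPM in MB157 iEV. MB157R iN1-ICD libraries lay far above the rest, MB157 iSOX2 libraries were next, and the 2 empty-vector groups overlapped near 0. The ratio of means with N1-ICD was 289, with an exact 95% interval of 155 to 711, and the fitted log2 fold change 8.23 (standard error 0.26). With SOX2 the ratio rested on 1 count in MB157 iEV and was 34.6, with an interval of 5.85 to 1400.5.

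TIE1 (chromosome 1, 43300982 to 43323108) stood at 1.23, 0.958 and 0.686 CPM in MB157R iN1-ICD, against 0.0472, 0.0502 and 0.151 CPM in MB157R iEV. It stood between 0.0443 and 0.0658 CPM in MB157 iSOX2, and had 0 counts in MB157 iEV. MB157R iN1-ICD libraries again lay above all others, at 122 counts in the 3 libraries. The ratio of means with N1-ICD was 11.5, with an exact 95% interval of 6.06 to 23.1.

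Of 11 genes for angiopoietins, related ligands and the phosphatase of TEK, most were near 0 in these cells. In MB157R iEV against MB157 iEV only 2 were tested, and they differed in opposite directions. PTPRB, the vascular phosphatase VE-PTP that acts on TEK, averaged 22.9 ± 1.76 CPM in MB157R iEV and 0.192 ± 0.0418 CPM in MB157 iEV, 119-fold higher (log2 fold change 6.78, standard error 0.15). ANGPT1, the activating ligand of TEK, averaged 0.55 ± 0.158 CPM in MB157R iEV and 9.79 ± 0.335 CPM in MB157 iEV (log2 fold change -4.23). The median of the 2 was 1.28. With a mean count of at least 5, 2 of 5 were higher and 3 lower, and the median was -1.54. With SOX2, ANGPT1 was the only filtered gene of the list and fell to 7.49 ± 0.254 CPM in MB157 iSOX2, against 9.79 ± 0.335 CPM in MB157 iEV. PTPRB averaged 2.32 ± 0.0873 CPM in MB157 iSOX2 and 0.192 ± 0.0418 CPM in MB157 iEV, and was 12.1-fold higher with SOX2 among genes with a mean count of at least 5 (log2 fold change 3.55, adjusted p = 1.3e-08), a value singled out after it was seen. There 1 of 5 genes of the list rose, 1 fell and 3 did not pass, with a median of -0.04. With N1-ICD, PTPRB was the only gene tested and did not pass (log2 fold change -0.01, adjusted p = 0.959). In MB157R iN1-ICD, where TEK was high, ANGPT1 stood between 0.0668 and 0.202 CPM and ANGPT2 between 0.0668 and 0.213 CPM.

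ENG was present in every group and was highest in MB157 iEV. ENG (chromosome 9, 127815016 to 127854658) stood at 38.2, 32.2 and 33.8 CPM in MB157R iN1-ICD, against 47, 48.4 and 50.3 CPM in MB157R iEV. It stood at 32.9, 35.4 and 34 CPM in MB157 iSOX2, against 75.8, 80 and 71.3 CPM in MB157 iEV. MB157R iEV thus lay below MB157 iEV, and the 2 induced groups overlapped at the bottom. ENG was lower in MB157R iEV than in MB157 iEV, a log2 change of -0.71 (standard error 0.05, adjusted p = 1.1e-08). For ENG the ratio of means was 0.45 with SOX2 and 0.715 with N1-ICD.

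Of 18 ligands, receptors and targets that work with endoglin, 14 were tested in MB157R iEV against MB157 iEV, where 7 were higher, 6 lower and 1 did not pass, with a median log2 fold change of 0.18. TGFBR2, the receptor that binds TGFβ, averaged 88.3 ± 5 CPM in MB157R iEV and 4.15 ± 0.312 CPM in MB157 iEV, 21.3-fold higher (adjusted p = 3.6e-15). The inhibitors of differentiation, common targets of BMP signals, split: ID1 was 4.95-fold higher, while ID2 averaged 2.16 CPM in MB157R iEV and 36 CPM in MB157 iEV, and ID3 16.4 and 57.3 CPM. With SOX2, 8 of 14 rose, 3 fell and 3 did not pass, with a median of 0.38, and TGFBR2 was 4.36-fold higher (log2 fold change 2.13, adjusted p = 1.4e-12). With N1-ICD, 4 of 13 rose, 5 fell and 4 did not pass, with a median of -0.10. ID3 rose 3.13-fold and TGFB2, a ligand, 1.96-fold, and both belong to the NOTCH signature picked in part from these libraries. ACVRL1 (ALK1), the endothelial receptor that endoglin assists, was not among the filtered genes and was singled out after its values were seen. It stood between 1.06 and 1.29 CPM in MB157R iN1-ICD, against 0 to 0.0472 CPM in MB157R iEV, and had 0 counts in both MB157 groups.

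**Figure D3:**
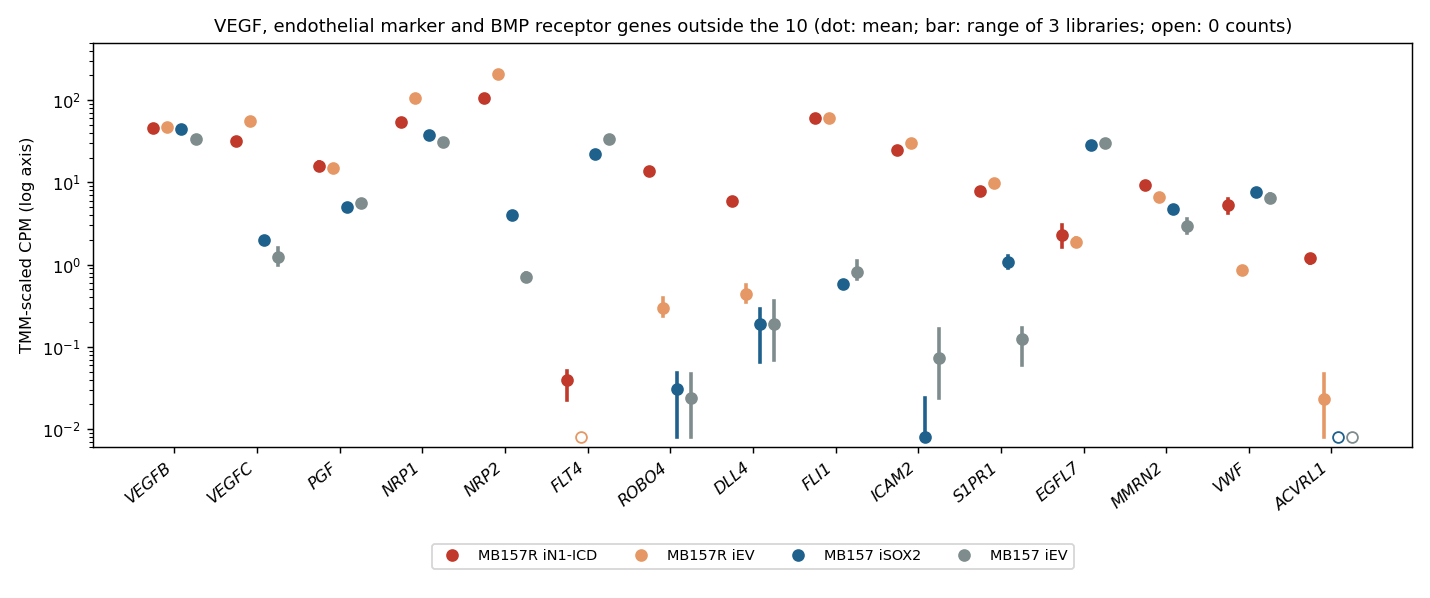
TMM-scaled CPM on a log axis of 15 VEGF, endothelial marker and BMP receptor genes beside the 10, with the groups side by side for each gene, a dot at the mean of 3 libraries and a bar over their range; values at or under 0.008 CPM are drawn at that level and means of 0 are open. NRP2, VEGFC, FLI1 and ICAM2 are high in both MB157R groups, FLT4 and EGFL7 in both MB157 groups, and ROBO4, DLL4 and ACVRL1 in MB157R iN1-ICD.

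GJA1 and GJB2 were both high in MB157R cells, and only GJA1 was also high with SOX2. GJA1 (chromosome 6, 121435646 to 121449727) stood at 201, 174 and 206 CPM in MB157R iN1-ICD, against 244, 245 and 250 CPM in MB157R iEV. It stood at 72.3, 72.7 and 80.7 CPM in MB157 iSOX2, against 0.36, 0.304 and 0.313 CPM in MB157 iEV. No library of a group overlapped another group, and MB157 iSOX2 lay between MB157 iEV and the MB157R groups. GJA1 was 756-fold higher in MB157R iEV than in MB157 iEV, or 9.49 on the log2 scale (standard error 0.07). No p-value is given because GJA1 passed the filter only through MB157R iEV. The ratio of means was 231 with SOX2 and 0.786 with N1-ICD. SOX2 averaged 62.2 ± 6.02 CPM in MB157R iEV and 302 ± 23.2 CPM in MB157 iSOX2, an order other than that of GJA1. The part of SOX2 in the levels of GJA1 was not tested.

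GJB2 (chromosome 13, 20187470 to 20192938) stood at 111, 104 and 108 CPM in MB157R iN1-ICD, against 152, 149 and 140 CPM in MB157R iEV. It stood at 1.51, 1.38 and 1.77 CPM in MB157 iSOX2, against 1.53, 2.13 and 2.27 CPM in MB157 iEV. All MB157R libraries lay far above all MB157 libraries, and the 2 MB157 groups overlapped. GJB2 was 74.4-fold higher in MB157R iEV than in MB157 iEV, or 6.12 on the log2 scale (standard error 0.08). GJB2 too passed the filter only through MB157R iEV, so no p-value is given. The ratio of means was 0.786 with SOX2 and 0.733 with N1-ICD. With SOX2 the exact 95% interval was 0.639 to 0.937, which covers counting error only. The fitted log2 fold change with SOX2 was -0.35 (standard error 0.20) at a mean count of at least 5. No difference of GJB2 with SOX2 is read from the interval.

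Connexins were compared with each other as CPM per kb of merged exons, over the 20 connexin genes in the count table including GJA1 and GJB2. In MB157R iEV, GJA1 held 28.1% of their summed level and GJB2 23.0%. In MB157R iN1-ICD the shares were 28.2% for GJA1 and 21.5% for GJB2. In MB157 iSOX2, GJA1 alone held 71.8%, with libraries between 71.2% and 72.8%. In MB157 iEV, by contrast, GJC1 (connexin 45) held 46.0% and GJC3 23.0%, and GJA1 held 0.798%. The leading connexin thus differed between MB157 iEV and the other 3 groups.

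**Figure D4:**
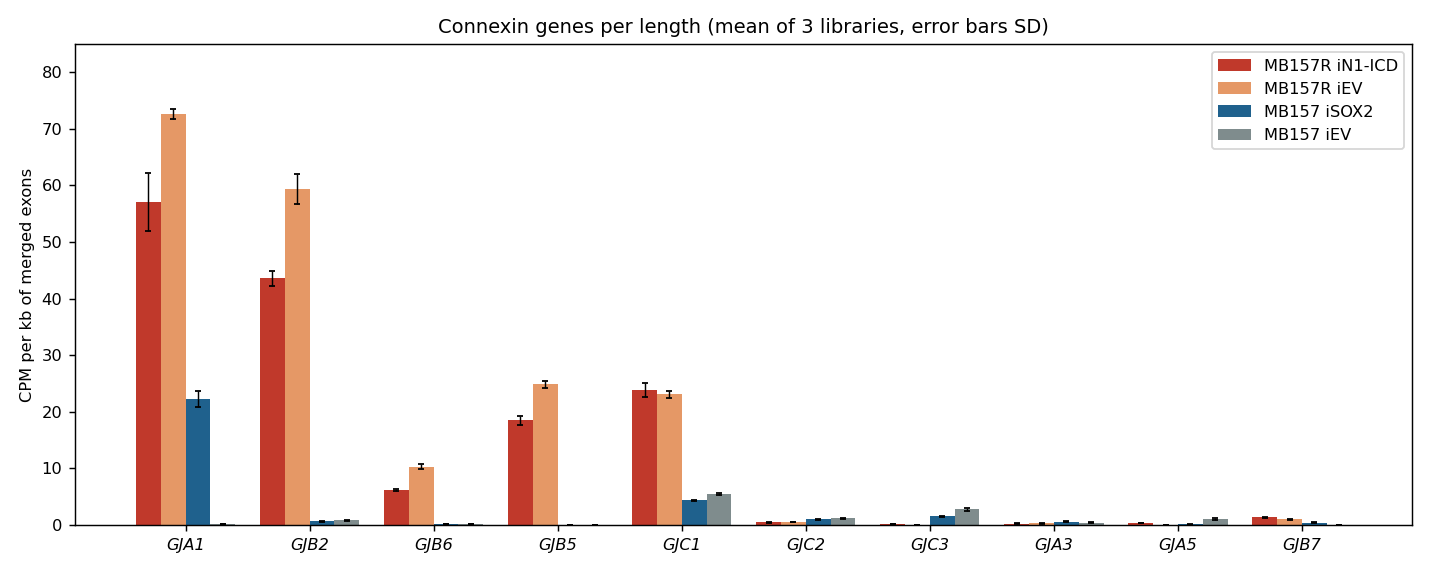
Mean CPM per kb of merged exons for 10 connexin genes in the 4 groups, with bars for the mean of 3 libraries and error bars for the SD. GJA1 reaches 72.6 CPM per kb in MB157R iEV, 22.2 in MB157 iSOX2 and 0.096 in MB157 iEV, and GJB2, GJB5 and GJB6 are high in the 2 MB157R groups alone.

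Of 21 other connexin and pannexin genes counted, 7 were tested in MB157R iEV against MB157 iEV, where 6 were higher and 1 lower, with a median log2 fold change of 2.08. Beta connexins of epithelia and skin were among them. GJB5 averaged 33.8 ± 0.84 CPM in MB157R iEV, had 2 counts in MB157 iEV and had a ratio of 1983, with an exact 95% interval of 549 to 16382. GJB6, next to GJB2 on chromosome 13, was 88.3-fold higher. GJC1 was 4.17-fold higher and PANX1, which forms channels to the outside, 4.45-fold higher, and both were named after their values were seen. GJC3 had 3 counts in MB157R iEV, against 361 in MB157 iEV, and was the gene that was lower (log2 fold change -6.94).

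With SOX2, 4 of these genes were tested, of which 1 rose and 3 fell, with a median of -0.27. GJC3 averaged 1.67 ± 0.154 CPM in MB157 iSOX2 and 3.09 ± 0.253 CPM in MB157 iEV, and GJC1 37.7 ± 1.22 and 48.2 ± 1.6 CPM. GJB6 stood between 0.307 and 0.488 CPM in MB157 iSOX2, against 0.27 to 0.491 CPM in MB157 iEV, and GJB5 had 0 counts in MB157 iSOX2, against 2 in MB157 iEV. The level of GJA1 in MB157 iSOX2 was thus not accompanied by GJB5 or GJB6 at the level of MB157R cells. With N1-ICD, 2 of 8 rose, 4 fell and 2 did not pass, with a median of -0.18. GJB6 fell to 20.2 ± 0.542 CPM in MB157R iN1-ICD, against 33.8 ± 1.53 CPM in MB157R iEV. GJB5 fell by 0.39 on the log2 scale.

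A list of 16 genes whose proteins bind, modify or turn over connexin 43 was followed beside it. Between MB157R iEV and MB157 iEV, 11 of 15 tested were higher, 1 lower and 3 did not pass, with a median log2 fold change of 0.31, where 90.2% of all genes were called and 45.0% were higher. CDH2 (N-cadherin), which shares junctions with connexin 43, was 247-fold higher, CAV1 (caveolin 1) 113-fold higher and the kinase PRKCA 95.6-fold higher. With SOX2, 6 of 14 rose, 3 fell and 5 did not pass, with a median of 0.03. CDH2 averaged 28 CPM in MB157 iSOX2 and 1.42 CPM in MB157 iEV (log2 fold change 4.30). With N1-ICD, 4 of 15 rose, 7 fell and 4 did not pass, with a median of -0.07, and CAV1 fell to 409 CPM in MB157R iN1-ICD, against 890 CPM in MB157R iEV (adjusted p = 3.6e-09). TJP1 (ZO-1), which anchors connexin 43, rose 1.12-fold.

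The name endothelial was checked against 28 other endothelial markers, of which PTPRB was already counted above. Most were low in every group. The number with a mean of at least 1 CPM was 11 in MB157R iN1-ICD, 6 in MB157R iEV, 6 in MB157 iSOX2 and 5 in MB157 iEV. Their summed level ran from 156 to 166 CPM in MB157R iN1-ICD, 133 to 141 CPM in MB157R iEV, 49.3 to 50.2 CPM in MB157 iSOX2 and 46.5 to 48.6 CPM in MB157 iEV. These sums rest on few markers. In MB157R iEV, FLI1 (60.3 CPM), ICAM2 (30.5 CPM) and PTPRB (22.9 CPM) made up most of it, and in MB157 iEV EGFL7 (30.2 CPM) did. MMRN1, CLEC14A and LYVE1 had 0 counts in all 12 libraries, and CLDN5 and EMCN had at most 7 counts in any group. The 12 breast epithelial markers, EPCAM and keratins among them, summed to between 2599 and 10354 CPM in the 12 libraries. The libraries are thus epithelial by these markers, and the 10 genes are called endothelial only for where they are best known.

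For resistance, 5 of these markers were tested, with 4 higher and 1 lower, and the median log2 fold change was 6.16. A marker high in 1 group can pass the filter through that group. With a mean count of at least 5, 8 of 16 were higher, 7 lower and 1 did not pass, with a median of 0.24. Over all genes at that count, 42.9% were higher and 43.8% lower. Among those lower there, SOX18, a transcription factor of endothelium, averaged 0.00787 CPM in MB157R iEV and 2.17 CPM in MB157 iEV, and VWF, the clotting factor stored by endothelium, 0.859 and 6.55 CPM. ICAM2, an adhesion molecule of endothelium and platelets, averaged 30.5 ± 2.1 CPM in MB157R iEV and 0.0726 ± 0.0789 CPM in MB157 iEV, 420-fold higher. The receptor S1PR1 was 79.6-fold higher, and FLI1, a transcription factor of endothelium and blood named after its values were seen, 73.4-fold higher. EGFL7, a secreted factor of endothelium, averaged 1.88 ± 0.198 CPM in MB157R iEV and 30.2 ± 1.3 CPM in MB157 iEV (log2 fold change -4.08, adjusted p = 7.0e-14). With SOX2, EGFL7 was the only marker among the filtered genes and did not pass (log2 fold change -0.08, adjusted p = 0.128). With a mean count of at least 5, 4 of 14 markers were higher, 2 lower and 8 did not pass, with a median of -0.02. PTPRB was higher as given above, S1PR1 was 8.73-fold higher (adjusted p = 6.4e-06), NOS3, the endothelial nitric oxide synthase, 3.94-fold higher (adjusted p = 1.4e-04) and MMRN2 1.63-fold higher, while SOX18 and TAL1 were lower.

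With N1-ICD, 2 of 7 markers rose, 2 fell and 3 did not pass, with a median of 0.05. With a mean count of at least 5, 8 of 15 rose, 2 fell and 5 did not pass, with a median of 0.91, where 27.6% of all genes were higher and 25.3% lower. ROBO4, a guidance receptor of endothelium, averaged 13.6 ± 0.554 CPM in MB157R iN1-ICD and 0.301 ± 0.0794 CPM in MB157R iEV, 45.3-fold higher (log2 fold change 5.52). MMRN2 rose 1.40-fold, while ICAM2 fell by 0.26 on the log2 scale. Among those that rose at that lower filter, DLL4, the NOTCH ligand of sprouting vessels, averaged 5.92 ± 0.382 CPM in MB157R iN1-ICD and 0.439 ± 0.109 CPM in MB157R iEV (log2 fold change 3.75, adjusted p = 7.8e-08). VWF averaged 5.33 ± 1 CPM in MB157R iN1-ICD and 0.859 ± 0.0643 CPM in MB157R iEV (log2 fold change 2.65, adjusted p = 1.0e-06). TAL1, a transcription factor of blood and endothelium, was 3.59-fold and the adhesion molecule ESAM 3.95-fold higher. The markers named at a mean count of at least 5 were singled out after their values were seen. VWF was also present in MB157 cells, at 7.59 ± 0.0992 CPM in MB157 iSOX2 and 6.55 ± 0.621 CPM in MB157 iEV. FLI1 did not pass with N1-ICD, at 60.7 ± 3.79 CPM in MB157R iN1-ICD and 60.3 ± 0.796 CPM in MB157R iEV (adjusted p = 0.390).

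PECAM1 and several other of the 10 genes are also made by blood cells and platelets, so 16 markers of these were counted. CD3E, MS4A1 and PF4 had 0 counts in all 12 libraries. PTPRC (CD45), which defines leukocytes, had 28 counts in MB157 iSOX2, against 1 in MB157 iEV, where PECAM1 had 12266 and 3 counts. The summed level of the list was 27 to 29.5 CPM in MB157 iSOX2, against 70.8 to 73.6 CPM in MB157 iEV, which is lower where PECAM1 was higher. It was 67.2 to 74.3 CPM in MB157R iN1-ICD, against 37.7 to 46.6 CPM in MB157R iEV. For resistance, 3 were tested, with 1 higher, 1 lower and 1 that did not pass, and the median was 0.02. With SOX2, 2 were tested and both fell, with a median of -1.60, among them CD14, a monocyte co-receptor, at 6.83 ± 1.07 CPM in MB157 iSOX2 and 36.7 ± 1.86 CPM in MB157 iEV. With N1-ICD, 4 were tested and all 4 rose, with a median of 1.32. CD68 rose 2.70-fold and ITGA2B, a platelet integrin, 2.19-fold, and their part in the levels of TEK, FLT1 and KDR was not tested.

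Genes whose pattern over the 4 groups was most like each of the 10 were sought among 14273 genes, by the root mean square difference of centred log2(CPM + 0.5) group means. TIE1 was left out because it did not reach a mean of 1 CPM in any group. For PECAM1 the nearest was CDH6, a cadherin, at a difference of 0.70, with 0, 0, 23.5 and 0.0241 CPM in MB157R iN1-ICD, MB157R iEV, MB157 iSOX2 and MB157 iEV, and the nearest gene after it was the adhesion molecule CNTN1 at 0.90. For TEK and for FLT1 it was the chemokine CCL5, at 0.35 and 0.54, and TEK was the nearest after it to FLT1. For GJB2 it was PLEK2 at 0.07, followed by GJB5 at 0.08. CDH2, at 0.96, was among the 3 nearest to GJA1. KDR was nearest to RHCG at 0.23, ENG to CDCA3 at 0.11, VEGFA to FOXM1 at 0.08 and CDH5 to AJUBA at 0.03. The measure uses 4 group means only, and it shrinks differences of low genes such as CDH5.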

How the data were processed

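The 12 libraries (4 groups of 3) were stranded mRNA libraries from 800 ng of RNA, sequenced paired-end with 60 bases a read. Per the labels, STAR and Salmon were used on hg38, and the authors deposited estimated counts (expected counts, not normalised) for 29744 entries. They also deposited, for each of 3 comparisons, log2 values of TMM-scaled CPM of filtered genes (edgeR 3.42.4 and limma 3.56.2), leaving out genes whose mean TPM was below 2 or mean count below 5. By the paper, pseudogenes and uncharacterised or predicted genes were left out as well. The deposited log2 values were used only to take the filtered genes and were recomputed from the counts to within 4.97e-14. These genes held between 92.7% and 93.4% of the counts, and a gene that is high in 1 group only can pass the filter through that group. Folds of list genes that were near 0 in 1 group and passed this filter through the other are given with no p-value.

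Estimated counts were rounded and compared by edgeR 4.0.16 (glmQLFit and glmQLFTest, R 4.3.3) on the 6 libraries of a comparison with TMM factors, with library sizes over all 29744 entries and no replicate block. Every adjusted p is a Benjamini-Hochberg value over all genes tested, called under 0.05. Unless given as a bound, a fold is the ratio of mean CPM, with TMM factors over the 12 libraries, so it can differ slightly from the fitted change. Intervals of ratios are exact (binomial, 95%), pool the counts of a group and cover counting error only, not the spread between libraries. Simulated counts in which 200 genes had been changed were used to check the script. The alternatives scaled by RLE factors or by totals only, tested genes of mean count 5 or more or of 1 count or more, and used limma-voom (limma 3.58.1), DESeq2 1.42.0, a fit over all 12 libraries, a replicate block and leaving out each library.

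The 10 genes and all lists were chosen with earlier results of these data known. In each list and comparison up to 3 rises and 3 falls could be named, the called genes of largest fitted change that reached 1 CPM on average, together with the 10 genes, SOX2, NOTCH1 and the 3 nearest genes of each. Some of these are named. Positions are from RefSeq (GRCh38) and exon lengths from GENCODE. Of the connexins listed, GJE1 matched no entry. CCN3 was found under its older symbol NOV. Values of some list genes and near neighbours are not reported here.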

Additional observations from a re-analysis of the deposited data

How the results depend on the processing

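Of 113 fold changes followed, 112 kept their direction and their side of the threshold in every alternative, and the exception was VEGFA in MB157R iEV against MB157 iEV, whose log2 fold change was 0.20 without MB157 iEV replicate 2. Of the 10 genes, 4 were called in MB157R iEV against MB157 iEV, 6 with a mean count of at least 5 and 7 with no filter. In MB157 iSOX2 against MB157 iEV 4 were called, 7 with a mean count of at least 5 and 7 with no filter, since more of the 10 were then tested, and these counts are a description because the choice of genes used that comparison. Leaving out each library gave 3 to 4, 4 to 4 and 7 to 7 called in the 3 comparisons, and 10115 to 10246, 6670 to 6920 and 5810 to 6327 genes called in all. With library totals alone, 4396 genes were called higher and 2859 lower in MB157 iSOX2 against MB157 iEV, where TMM scaling gave 3539 and 3698.

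Libraries with the same replicate number did not deviate together, with correlations of deviations between -0.111 and 0.044 across 16151 genes. A replicate block gave 10247, 7019 and 6422 calls, against 10318, 7237 and 6621 without it, and the same numbers of the 10 genes called (4, 4 and 7). For PECAM1, TEK, TIE1 and CDH5 the counts in MB157 iEV limit the ratios, at 0 to 3 counts in 3 libraries.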

Other observations

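Secreted inhibitors of vessel growth, a list of 14 genes, were followed in the same comparisons. In MB157R iEV against MB157 iEV, 6 of 8 tested were higher and 2 lower, where 90.2% of all genes were called, and the median log2 fold change was 0.59, against -0.004 over all genes. SEMA3A, a semaphorin that binds neuropilins, averaged 271 CPM in MB157R iEV and 0.805 CPM in MB157 iEV (log2 fold change 8.31). TIMP3, a metalloproteinase inhibitor that also binds KDR, was 279-fold higher. THBS1 (thrombospondin 1) was 5.14-fold higher, while VASH1 (vasohibin 1) averaged 9.51 CPM in MB157R iEV and 29.6 CPM in MB157 iEV. With SOX2, 1 of 6 rose, 3 fell and 2 did not pass, with a median of -0.13, and COL18A1, the precursor of endostatin, fell to 261 CPM in MB157 iSOX2, against 399 CPM in MB157 iEV. With N1-ICD, 5 of 10 rose, 1 fell and 4 did not pass, with a median of 0.21. ADAMTS1, a protease that can bind VEGFA, rose 4.71-fold (edgeR quasi-likelihood, adjusted p = 2.3e-10).

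Of 14 markers of fibroblasts and mural cells, which surround vessels, 8 were tested in MB157R iEV against MB157 iEV, with 6 higher and 2 lower and a median of 2.88. With SOX2, 2 of 5 rose, 2 fell and 1 did not pass, with a median of -0.19. With N1-ICD, 4 of 7 rose, 2 fell and 1 did not pass, with a median of 0.67. Their summed level was 566 to 621 CPM in MB157R iN1-ICD, 413 to 431 CPM in MB157R iEV, 656 to 676 CPM in MB157 iSOX2 and 944 to 1010 CPM in MB157 iEV. NOTCH3, a member of the list, averaged 160, 50.1, 545 and 842 CPM in these groups, in this order. NOTCH3 also belongs to the NOTCH signature picked in part from the iN1-ICD libraries. It made up most of the sum in both MB157 groups, so the order of the sums is not that of most markers.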
